A study of Mus musculus with 6 samples.

Results

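The 84 gene names of the cytosolic ribosomal proteins were compared between hearts from mice on a high fat diet (HFD) and from mice on a normal diet (ND). Members were the array probes whose gene name began with Rpl or Rps, without the ribosomal S6 kinases and without names marked as pseudogenes. They took up 181 of the 55681 probes other than controls. The names cover 43 proteins of the large subunit, 3 proteins of its stalk, 29 of the small subunit, 8 paralogs, and Rps19bp1, a binding protein of Rps19 that is not itself a ribosomal protein. In 83 of the 84 genes at least 1 probe was bright enough to be tested. The exception was Rpl10l, a paralog of Rpl10 known from the testis, whose signal stayed below the well-above-background limit in all 6 hearts.

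The mice were male C57BL/6 animals with no transgene named in the labels, given 1 of the diets from the age of 4 weeks for 4 months. Fat made up 60% of the kcal in the HFD, and the ND was standard chow. RNA from heart tissue of 3 ND-fed and 3 HFD-fed mice was read on 1 array per heart. The labels do not say whether the whole heart or a part of it was taken. The comparison asked how the diet changed gene expression in the heart. The study's methods describe its adult mice as littermates, and the labels do not say which of these hearts shared a litter.

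Cytosolic ribosomes make nearly all of a cell's protein, and each is built from ribosomal RNA and one copy of most ribosomal proteins. Their transcripts are among the most abundant in any cell and are known for being controlled together, largely at translation, through a run of pyrimidines at the very start of the mRNA (the 5′ terminal oligopyrimidine, or TOP, motif) that answers to mTORC1. In muscle, some subunits have a paralog of their own, of which Rpl3l, restricted to heart and skeletal muscle, is the best known. An array reads only the amount of transcript, and it cannot show how much of it is translated.

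The start-site motif is shown for 3 members that carry it at the first annotated base and 3 that do not. Each line holds 30 bases of the sense strand from RefSeq (GRCm38.p6), 15 before the start and 15 from the start on, with the pyrimidine run that begins at the first base in capitals. Rps6 lies at chr4:86857353-86857382 (minus strand), Rps27 at chr3:90213634-90213663 (minus), Rpl38 at chr11:114668565-114668594 (plus), Rpl5 at chr5:107900513-107900542 (plus), Rpl3l at chr17:24727811-24727840 (plus) and Rpl22l1 at chr3:28805493-28805522 (plus).
Rps6: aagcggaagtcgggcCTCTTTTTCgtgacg
Rps27: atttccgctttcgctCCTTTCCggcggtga
Rpl38: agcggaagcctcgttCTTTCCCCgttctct
Rpl5: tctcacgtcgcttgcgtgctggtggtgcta
Rpl3l: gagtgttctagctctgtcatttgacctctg
Rpl22l1: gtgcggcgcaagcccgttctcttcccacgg

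A start with C followed by at least 4 bases that were each C or T, searched on the sense strand only, was present at the first annotated base in 13 of the 55 ribosomal protein genes of the subunits and stalk with a sequence (23.6%). Of all 17492 protein-coding genes with a sequence, 2.67% had it. None of the 8 paralogs and other names with a sequence and none of 69 mitochondrial ribosomal protein genes had it there. When the run could begin anywhere within 10 bases of the annotated start, the shares were 60.0% of the ribosomal protein genes, 62.5% of the paralogs and other names, 44.9% of the mitochondrial ones and 34.9% of all protein-coding genes. A match describes these letters only, and an annotated start can lie some bases away from the one the heart uses.

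A single slide held the 6 arrays, HFD 1 and HFD 2 in its first row and the other 4 hearts in its second. The share of probes well above background was 49.2% to 52.9%, saturated spots numbered 0, and the 75th percentile lay between intensities of 453 and 544. All 6 cardiomyocyte markers were well above background on every array, and their mean level was 8.79 to 9.06 (log2 intensity relative to the array's 75th percentile, the level used throughout). HFD 2 stood apart in its atrial markers, with a mean level of 1.49 over 4 genes against 4.97 to 8.16 in the other 5 hearts, and in its adipocyte markers, at -4.17 over 4 genes against -2.23 to -0.49. HFD 1 stood apart in smooth muscle markers, at 4.90 over 4 genes against 2.81 to 3.56. The 5 erythroid markers tested were lower in all HFD-fed hearts than in all ND-fed hearts, as 10.8% of all genes tested were. Their mean levels were 3.10, 3.09 and 2.68 in the HFD-fed hearts against 3.46, 4.24 and 3.53 in the ND-fed hearts. At an unadjusted p below 0.05 (limma) 4 of them were lower, where 6.38% of all genes were, and 0 passed Benjamini-Hochberg adjustment. The part of atrial, fat, smooth muscle or blood content in the values below was not tested. In heart tissue, the piece taken, fewer cells of a type and less RNA per cell cannot be told apart.

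The ribosomal protein transcripts were at nearly the same level on both diets. Of 83 genes, 0 were lower and 0 were higher in HFD-fed hearts at an unadjusted p below 0.05 (limma), where 6.38% of all 20568 genes tested were lower and 5.61% higher. After Benjamini-Hochberg adjustment 0 of the 83 passed, against 0.0146% of all genes. The median difference between HFD and ND was 0.00051 on the log2 scale, with 40 genes below 0 and 43 above, and over all genes tested it was -0.0012. The interquartile range of the members was -0.034 to 0.032, a narrower span than the -0.11 to 0.11 of all genes. The median standard error was 0.072 for the members and 0.10 for all genes.

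These transcripts are bright on the array. Of the 83 genes, 75 were in the brightest 10th of genes tested, where 7.73% were lower and 1.90% higher at an unadjusted p below 0.05 and the median difference was -0.031 over 2057 genes. The interquartile range of that 10th was -0.11 to 0.026, narrower than that of all genes, and its median standard error was 0.08. The 95% interval of the difference lay inside a 1.2-fold change in either direction for 64 of the 83 members and inside 1.5-fold for 82. Rpl39l, a paralog of Rpl39, was the exception, and its interval ran from -1.22 to 1.62. Its probe was well above background on 5 of the 6 arrays.

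**Figure D1:**
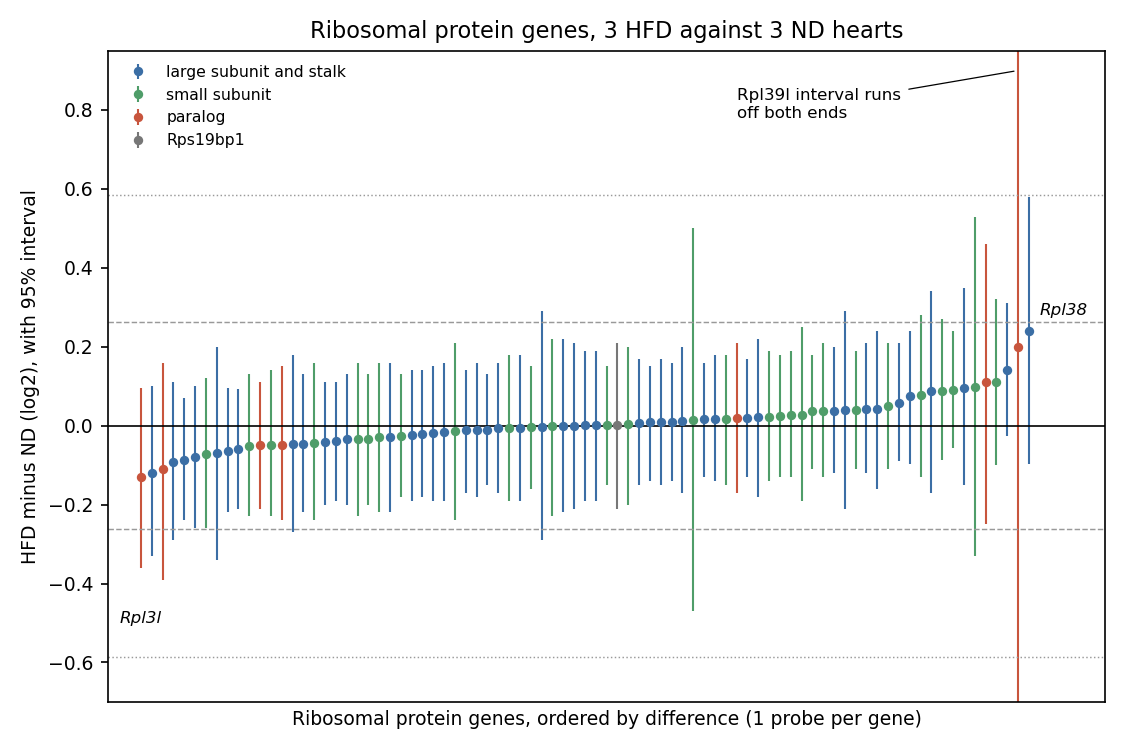
The difference between HFD-fed and ND-fed hearts (log2, vertical axis) for each of the 83 tested genes, ordered from lowest to highest, with bars for the 95% interval. Colours mark the subunits and paralogs, and dashed and dotted lines mark 1.2-fold and 1.5-fold. Every interval crosses 0, and only that of Rpl39l passes both dotted lines.

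Scaled by the 75th percentile, few members separated the 3 hearts of one diet from the 3 of the other. Only Rpl18 and Rpl27a were lower in every HFD-fed heart than in every ND-fed heart, 2 of 83 genes where 10.8% of all genes did so. Rpl21, Rps4x and Rpl5 were higher in every HFD-fed heart, 3 of 83 where the share of all genes was 8.82%.

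Among the large subunit proteins, Rpl5 had the smallest p. Rpl5 carries 5S ribosomal RNA into the ribosome together with Rpl11, and the free complex binds Mdm2, the ubiquitin ligase of p53. Its level was 5.37, 5.35 and 5.34 in the ND-fed hearts and 5.47, 5.59 and 5.44 in the HFD-fed hearts. All HFD-fed hearts were above all ND-fed hearts, most clearly HFD 2. The difference was 0.14 ± 0.069 (SE), with a 95% interval of -0.027 to 0.31, an unadjusted p of 0.0849 and an adjusted p of 0.487 (limma). Its partner Rpl11 was at 8.06, 8.08 and 8.09 with ND and at 8.07, 8.11 and 8.07 with HFD, a difference of 0.0088 with an interval of -0.14 to 0.15. The diets overlapped in Rpl11.

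The unadjusted p of Rpl5 fell below 0.05 under other ways of processing. It was 0.0278 with quantile normalization, 0.0202 with cyclic loess and 0.0332 with another background correction, with adjusted p values of 0.35, 0.319 and 0.388. With the row of the slide as a term the difference was 0.082, but the first row held no ND-fed heart, so that this value sets HFD 3 alone against the 3 ND-fed hearts. For HFD 1 and HFD 2, row and diet cannot be told apart.

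Rpl38, a large subunit protein known for a role in the translation of Hox transcripts in the mouse embryo, had the largest difference of the 83 genes. Its level was 8.09, 8.10 and 8.13 in the ND-fed hearts and 8.05, 8.54 and 8.45 in the HFD-fed hearts. HFD 2 and HFD 3 were above every ND-fed heart, and HFD 1 was the lowest of all 6. The difference was 0.24 ± 0.14 (SE), or 1.18-fold, with an interval of -0.097 to 0.58, an unadjusted p of 0.131 and an adjusted p of 0.556 (limma). A second probe of Rpl38, shifted by 6 bases on the transcript, gave 7.90, 7.81 and 7.91 with ND and 7.81, 8.33 and 8.21 with HFD. The same pair of hearts was high in both probes, though probes that overlap this far are not independent readings. Without HFD 1 the difference was 0.39 with an unadjusted p of 0.00295 and an adjusted p of 0.218 (limma), and without HFD 2 it was 0.14. With quantile normalization the diets did not overlap in the first Rpl38 probe. HFD 1 was then at -0.13 from the 6-heart mean, just above the ND-fed hearts at -0.16, -0.16 and -0.14. HFD 3 was the highest there at 0.36, and HFD 2 was at 0.22.

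**Figure D2:**
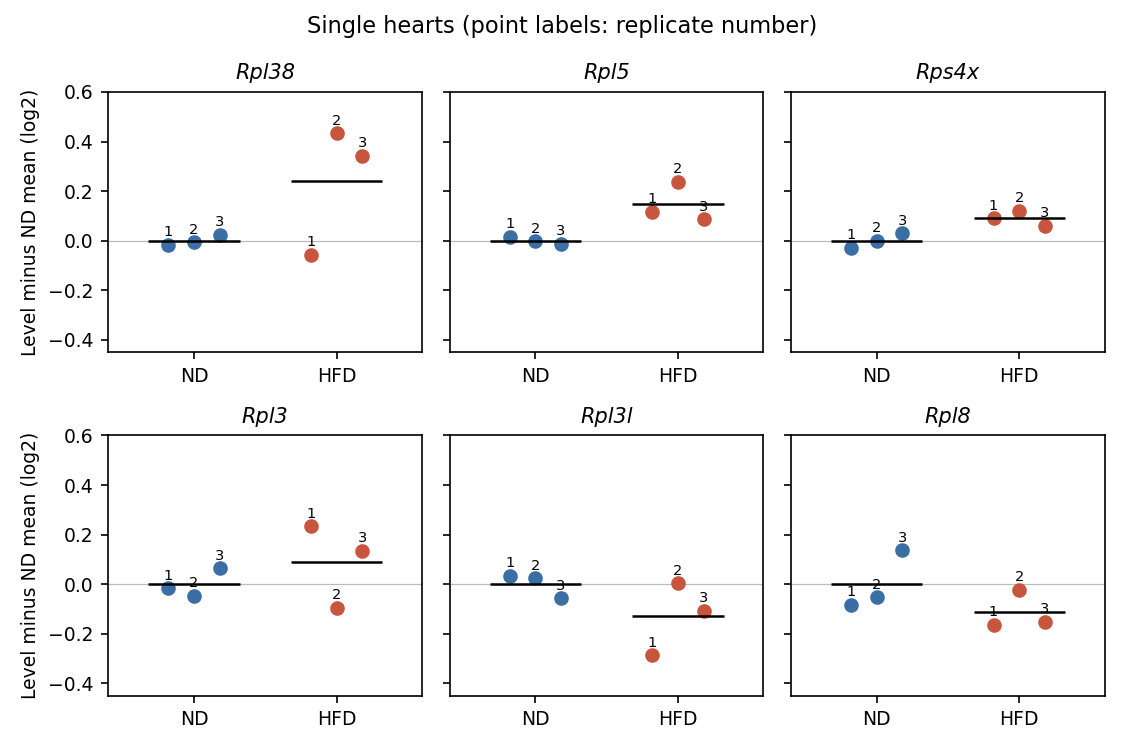
The level of 6 members in each heart minus the ND mean of that gene (log2, vertical axis), with ND-fed hearts in blue, HFD-fed hearts in red, bars at the group means and replicate numbers above the points. Rpl38 is high in HFD 2 and HFD 3 but not in HFD 1, and Rpl5 and Rps4x are higher in all HFD-fed hearts.

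The large subunit genes as a group had a median difference of -0.0059 over 43 genes, 23 below 0 and 20 above. Their mean level was 7.23, 7.20 and 7.21 with ND and 7.17, 7.28 and 7.20 with HFD, so the diets overlapped. Rpl8, a protein next to the catalytic centre, had the largest decrease among them. It was at 7.81, 7.84 and 8.03 with ND and at 7.73, 7.87 and 7.74 with HFD, a difference of -0.12 with an interval of -0.33 to 0.10. A second Rpl8 probe gave 0.0031 ± 0.08 (SE), and without ND 3, the highest heart, the first probe gave -0.047. Rpl35 followed with -0.093, Rpl18 with -0.086, Rpl27 with -0.08, Rpl32 with -0.068, Rpl6 with -0.064 and Rpl9 with -0.06, and the smallest unadjusted p among these was 0.226.

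Rpl18 was lower in every HFD-fed heart, with 7.02, 6.98 and 6.97 against 6.85, 6.96 and 6.91. Rpl27a was at 7.15, 7.15 and 7.18 with ND and at 7.08, 7.14 and 7.13 with HFD, where the nearest hearts of the diets almost met. The diets overlapped in its other probes, which gave 0.045 ± 0.065 (SE) and 0.062 ± 0.065. With quantile normalization the diets overlapped in Rpl27a but not in Rpl18 or Rpl21. In Rpl21 the HFD-fed hearts were higher by 0.058, with levels of -0.17, -0.13 and -0.15 against -0.12, -0.11 and -0.05. A second Rpl21 probe gave 0.024 ± 0.063 (SE), and there the diets overlapped. On the other side of 0, Rpl36a was at 0.096 ± 0.10 (SE) and Rpl22, whose paralog is Rpl22l1, at 0.043 ± 0.081.

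The stalk proteins Rplp0, Rplp1 and Rplp2, which recruit the translation factors to the ribosome, had differences close to 0. Rplp0, often used as a reference gene, was at 8.50, 8.45 and 8.44 with ND and at 8.39, 8.63 and 8.37 with HFD. Its difference was -0.0013 with an interval of -0.22 to 0.22, while HFD 2 was the highest and HFD 3 the lowest of the 6 hearts. Rplp1 differed by 0.017 and Rplp2 by 0.00051, with intervals of -0.13 to 0.16 and -0.19 to 0.19.

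A pair of Rplp0 probes shows how close and yet different the sequences behind one gene name can be. Both are listed at chr5:116013404-116013463 and chr5:116013397-116013456 (mm9, plus strand), and of the 53 bases in which they overlap 5 differ, shown in capitals.
Rplp0 A_55_P2135098: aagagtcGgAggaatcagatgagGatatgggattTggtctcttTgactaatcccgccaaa
Rplp0 A_55_P1970866: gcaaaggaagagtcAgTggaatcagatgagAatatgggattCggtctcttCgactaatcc
The first is the probe described above and the second gave a difference of 0.016 ± 0.13 (SE).

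The small subunit had a median difference of 0.014 over 29 genes, 12 below 0 and 17 above. Rps6, the substrate of the S6 kinases downstream of mTORC1, was at 7.39, 7.36 and 7.32 with ND and at 7.36, 7.45 and 7.32 with HFD. The diets overlapped, and the difference was 0.023 with an interval of -0.14 to 0.19. Phosphorylation of the protein, by which Rps6 is usually followed, cannot be read from these data.

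Rps4x, the X-linked copy of Rps4, was at 6.24, 6.27 and 6.30 with ND and at 6.36, 6.39 and 6.33 with HFD, a difference of 0.091 with an unadjusted p of 0.182 and an adjusted p of 0.609 (limma). Its HFD-fed hearts were all above its ND-fed hearts. A second Rps4x probe, which the files place on chromosome 3 rather than X, gave 0.004 ± 0.059 (SE). The separation of the diets was thus seen with 1 of the 2 probes.

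Rps19, mutated in Diamond-Blackfan anaemia, was the small subunit gene with the largest increase. It was at 5.87, 5.80 and 5.90 with ND and at 5.82, 6.05 and 6.02 with HFD, a difference of 0.11 with an interval of -0.099 to 0.32. HFD 2 and HFD 3 were high and HFD 1 was not, the order also seen in Rpl38. The other small subunit genes at the ends of the order were Rps21 at 0.097 ± 0.18 (SE), Rps24 at 0.089 ± 0.072 and, below 0, Rps13 at -0.072 ± 0.078.

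Of the paralogs, Rpl3l had the largest decrease of the 83 genes and is set beside Rpl3. Rpl3l was at 6.06, 6.05 and 5.97 in the ND-fed hearts and at 5.74, 6.03 and 5.92 in the HFD-fed hearts, a difference of -0.13 with an interval of -0.36 to 0.096. Rpl3, whose protein it can replace in the ribosomes of striated muscle, was at 5.91, 5.88 and 5.99 with ND and at 6.16, 5.83 and 6.06 with HFD, a difference of 0.088 with an interval of -0.17 to 0.34. In the HFD-fed hearts the order was opposite: HFD 1 was lowest for Rpl3l and highest for Rpl3, and HFD 2 was highest for Rpl3l among them and lowest for Rpl3. Single hearts set the size of both differences. Without HFD 1 they were -0.054 for Rpl3l and 0.016 for Rpl3, and without HFD 2 they were -0.20 and 0.18.

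A second Rpl3 probe gave the same order in the HFD-fed hearts, with 5.67, 5.74 and 5.90 for ND and 6.12, 5.74 and 5.93 for HFD. Its sequence and that of the Rpl3l probe are shown because they come from matching parts of the paralogs. The Rpl3 probe spans an intron at chr15:79908489-79908772 (mm9, minus strand) and the Rpl3l probe at chr17:24872413-24872681 (mm9, plus strand). The capitals mark the 27 bases in which they align, of which 20 were identical, with no shared run longer than 6 bases.
Rpl3: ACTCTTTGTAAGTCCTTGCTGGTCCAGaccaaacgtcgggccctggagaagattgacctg
Rpl3l: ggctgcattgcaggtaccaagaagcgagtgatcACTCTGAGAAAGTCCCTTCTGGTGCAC

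The level of Rpl3l minus that of Rpl3, set to 0 at the ND mean, was 0.05, 0.07 and -0.12 with ND and -0.52, 0.11 and -0.25 with HFD. The diets overlapped through HFD 2, and the difference was -0.22 with an interval of -0.76 to 0.31. In an exact two-sided permutation test over the 6 hearts p was 0.4, or 0.933 when adjusted over the 7 paralog pairs tested. The smallest p that 3 hearts against 3 allow is 0.1.

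In the other 6 pairs the diets overlapped as well, with p of 0.4 to 1 in the exact permutation test and adjusted p of 0.933 to 1. The tightest interval was that of Rps27l minus Rps27, 0.0049 with a 95% interval of -0.095 to 0.10. Rps27l is a target of p53. Rpl7l1 minus Rpl7 was -0.14, Rpl22l1 minus Rpl22 was -0.093, Rpl36al minus Rpl36a was -0.076 and Rpl39l minus Rpl39 was 0.19. For Rps4y2 minus Rps4x the value was 0.018 (interval -0.44 to 0.48). The array's Rps4y2 probe is listed in RefSeq under Rps4l, on chromosome 6, despite the name of a Y-linked gene.

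On their own, Rpl7l1 differed by -0.11 ± 0.11 (SE), Rpl22l1 by -0.05 ± 0.064, Rps27l by -0.048 ± 0.079, Rpl36al by 0.02 ± 0.079, Rps4y2 by 0.11 ± 0.15 and Rpl39l by 0.20 ± 0.58. The smallest unadjusted p among these 6 was 0.347.

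Several probes carried the same gene name in 53 of the 83 genes, which gave a check within each array. The differences between HFD and ND spread over a median of 0.053 among the probes of a gene, and at most 0.20, although their levels lay up to 11.41 apart on the log2 scale. Over all 176 member probes tested, 0 were lower and 2 were higher at an unadjusted p below 0.05, where 6.06% of all probes tested were lower and 5.86% higher. One was a probe of Rpl36a at 4.74, 4.79 and 4.74 with ND and 4.92, 4.89 and 4.91 with HFD, with no overlap (0.15, unadjusted p = 0.0439 and adjusted p = 0.408 in limma). Rpl36a had 2 other probes, at 0.096 and 0.081. The other was a dim probe of Rpl39 at -2.24, -2.22 and -2.33 with ND and -2.14, -2.10 and -1.92 with HFD (0.21, adjusted p = 0.412 in limma), while the brighter Rpl39 probes differed by 0.0075 and 0.03. No gene had probes called in opposite directions.

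Ribosomal protein genes have many processed copies in the genome, and 12 member probes lay on another chromosome in the files (mm9) than the gene in RefSeq. The genes read by such a probe were Rps27 and Rps29. All 4 Rps27 probes were placed on chromosome 9, while RefSeq has Rps27 on chromosome 3, and the 3 Rps29 probes on chromosome 2 instead of 12. Their differences were -0.052 ± 0.074 (SE) for Rps27 and 0.028 ± 0.091 for Rps29, and signals of near-identical copies could not be kept apart. Position within a chromosome was not compared with RefSeq. The probe that read Rps2 lay at chr17:42864841-42864900 (mm9), far from the other Rps2 probe at chr17:24857583-24857642. They gave -0.048 ± 0.076 (SE) and 0.013 ± 0.079. For Rps24 the probes of 3 RefSeq variants differed by 0.054, -0.029 and 0.0061 between the diets.

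Scaled by the 75th percentile, the medians of single hearts lay further apart than those of the diets. Each heart's median distance from the 6-heart mean of a gene was 0.024, -0.006 and -0.019 with ND and -0.037, 0.065 and -0.03 with HFD. HFD 2 held the highest value for 43 of the 83 genes and the lowest for 2. This heart also had the lowest 75th percentile of intensity (453), by which its levels were scaled, and the lowest spike-in slope (0.896 against 0.921 to 0.958). The part of these in the result was not tested. With quantile normalization HFD 3 was highest instead, in 40 of 83 genes with a median of 0.048, and HFD 2 was at -0.0081. With cyclic loess the heart medians of the diets did not overlap. They were -0.021, -0.025 and -0.016 with ND and 0.032, -0.0073 and 0.034 with HFD.

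The median difference between diets therefore had no settled sign. It was 0.044 with quantile normalization (18 genes below 0 and 65 above) and 0.043 with cyclic loess (16 and 67). Without HFD 2 it was -0.032 (58 and 25). The largest of these shifts was 0.044, close to the pooled standard deviation of the heart medians under 75th percentile scaling (0.043).

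**Figure D3:**
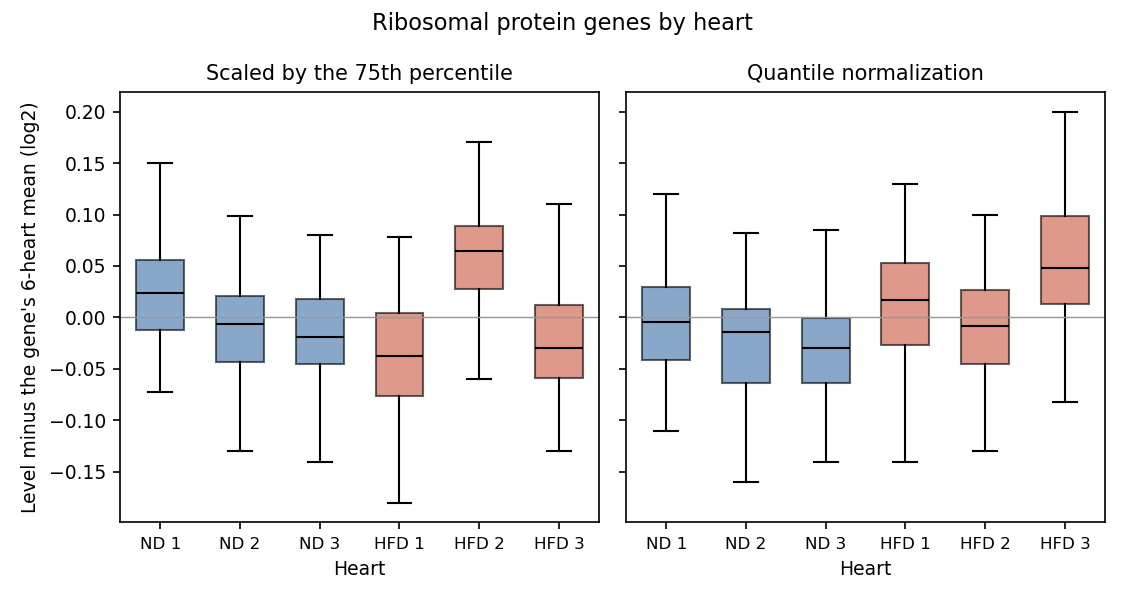
Distance of each gene from its mean over the 6 hearts (log2, vertical axis) for the 83 ribosomal protein genes in each heart, scaled by the 75th percentile (left) and by quantile normalization (right). Boxes span the interquartile range with a bar at the median, and whiskers reach the last gene within 1.5 box lengths; HFD 2 is highest on the left (median 0.065) and HFD 3 on the right (0.048).

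Ribosomal proteins whose names lie outside the Rpl and Rps series also overlapped between the diets. Rpsa, a small subunit protein, differed by -0.067 ± 0.11 (SE) and Fau, the gene of a small subunit protein made as a fusion, by 0.0062 ± 0.064. Over the 3 genes tested of this list the median was 0.0043.

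Mitochondrial ribosomal proteins, which are nuclear-encoded and build the ribosomes that translate the mitochondrial genome, gave other values on the same arrays. Their median difference was -0.14 over 75 tested genes, with 71 below 0. At an unadjusted p below 0.05, 18 were lower and 0 higher, and 0 passed the adjustment, where 6.38% of all genes were lower and 5.61% higher. In 37 genes all HFD-fed hearts were below all ND-fed hearts and in 1, Mrpl48, all were above, beside 10.8% and 8.82% of all genes. Their mean level was 5, 4.97 and 4.91 with ND and 4.84, 4.89 and 4.80 with HFD, with no overlap. For the 83 cytosolic genes the mean level was 6.94, 6.87 and 6.88 with ND and 6.86, 6.96 and 6.89 with HFD, so the diets overlapped. The median of the mitochondrial list stayed below 0 under all 19 alternatives, from -0.17 to -0.10. The difference between the cytosolic and mitochondrial genes was not itself tested.

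Mrpl55 (-0.23 ± 0.07 SE, adjusted p = 0.311) and Mrps27 (-0.23 ± 0.072, adjusted p = 0.325) had the smallest p of the mitochondrial list in limma. Mrps27 is a small subunit protein of the mitochondrial ribosome and Mrpl55 one of its large subunit.

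**Figure D4:**
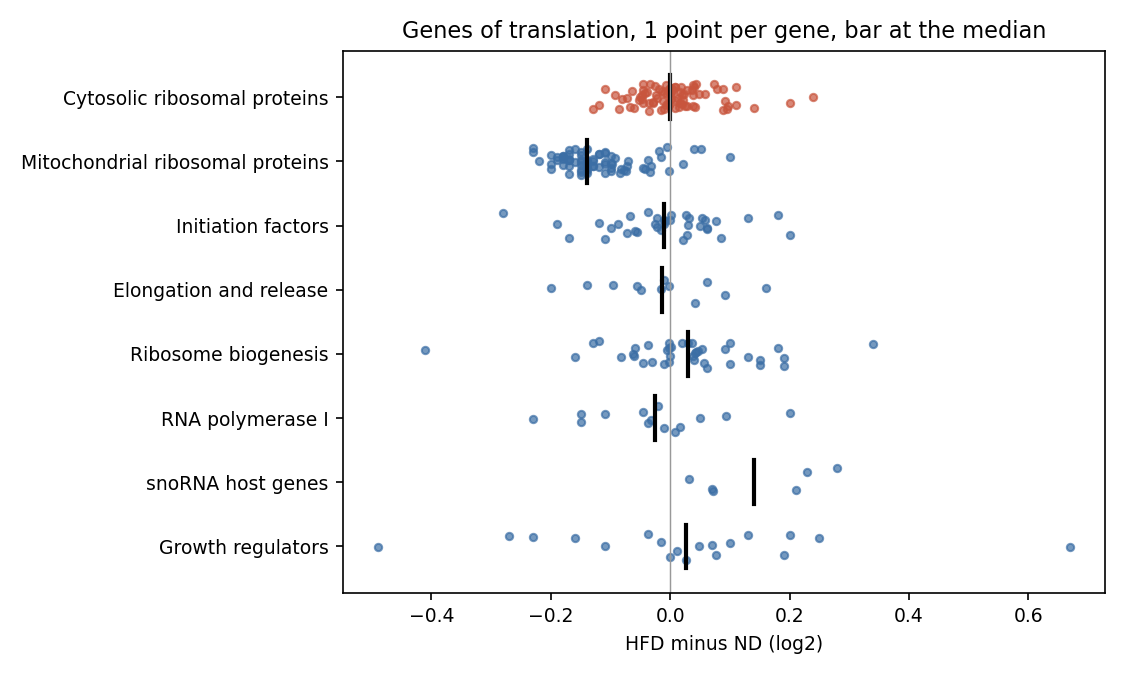
The difference between HFD-fed and ND-fed hearts (log2, horizontal axis) for the genes of 8 groups, 1 point per gene with a bar at the median. The 83 cytosolic ribosomal protein genes (red) centre on 0.00051 and the 75 mitochondrial ones on -0.14.

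The shares of 6.38% lower and 5.61% higher over all genes also apply to the smaller lists that follow, in which 1 or 2 called genes make up much of a list. The 36 initiation factor genes had a median of -0.0096 with 0 called either way. The 2 with the smallest p were Eif2b4, a subunit of the exchange factor for eIF2, at -0.19 ± 0.079 (SE), and Eif3m, a subunit of eIF3, at 0.18 ± 0.08. Of 12 elongation and release genes, Eef2k, the kinase that inactivates elongation factor eEF2, was lower (-0.20, unadjusted p = 0.0123, adjusted p = 0.29 in limma) and Tpt1, itself a well-known TOP transcript, was higher (0.16, unadjusted p = 0.0342, adjusted p = 0.379).

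Genes that build ribosomes came next. Over 39 biogenesis factors the median was 0.03, with 1 lower gene, Rrp12, a factor of ribosomal subunit export, at -0.41 ± 0.15 (SE) with an adjusted p of 0.382 in limma, and Rrp9, a protein of the U3 small nucleolar particle, at -0.16 next in p. The 14 genes of RNA polymerase I transcription, which makes the large ribosomal RNAs, had a median of -0.026. Ubtf, which opens ribosomal DNA for transcription, was the 1 gene called there (-0.23 ± 0.075 SE, adjusted p = 0.33), and Polr1c, a subunit shared with RNA polymerase III, was at -0.15.

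Host genes of small nucleolar RNAs, several of which carry a TOP motif as ribosomal protein genes do, were all above 0. Their median was 0.14 over 6 genes tested. Snhg1 (0.23 ± 0.07 SE) and Gas5 (0.28 ± 0.11) had an unadjusted p below 0.05, with adjusted p of 0.322 and 0.416 in limma. The median of this list was 0.28 without HFD 1 and 0.063 without HFD 2.

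Among 19 growth regulators of translation the median was 0.027, with 2 lower and 1 higher at an unadjusted p below 0.05, where 6.38% and 5.61% of all genes were. Sesn1, a leucine-responsive inhibitor of mTORC1, was lower by -0.49 ± 0.13 (SE) with an adjusted p of 0.281, and Rps6kb2, an S6 kinase, by -0.23 ± 0.074 with an adjusted p of 0.331 (limma).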

How the data were processed

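RNA from 3 ND-fed and 3 HFD-fed mouse hearts was hybridised to 1-colour Agilent arrays (Cy3). The authors' deposited intensity was background-subtracted by Agilent Feature Extraction (10.7 in the submitters' processing notes, 10.7.1.1 per the file headers), with no scaling between arrays. A table of log2 values was deposited as well, whose normalization is not given in the sources used here. It matched quantile normalization (median difference of at most 0.00188 per array) and served as an alternative.

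Control spots and 127 to 190 outlier spots per array were left out, spots of 1 probe were averaged, and the array's 75th percentile was subtracted on the log2 scale. A probe was tested if all arrays of at least 1 diet showed it well above background and each diet had 2 or more measured arrays, which held for 27585 probes. HFD and ND were compared by limma 3.58.1 under R 4.3.3 with two-sided moderated tests, and p-values were adjusted over all tested probes after Benjamini and Hochberg. The script was tested on simulated data. A gene was read by its brightest tested probe, over 20568 gene names. Fold changes are HFD minus ND, and levels of different probes are not on one scale.

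Members and gene lists were chosen with earlier results of these data known. Named were the 10 largest decreases and increases, members past the adjustment, the paralogs, genes with probes called in opposite directions, Rps6, Rpl5, Rpl11, Rplp0, Rplp1, Rplp2, Rpl3, Rpl22 and Rps27 by role, and the 2 smallest p of each other list. Rpl21, Rpl27a, Rpl39, Rps2, Rps29, Mrpl48 and Rps19bp1 lie outside this rule and were named after their values were seen. The result of 1 further list member is not reported here. Arrays of a diet correlated with r of 0.99 to 0.995. Each array came from 1 heart, so each heart is 1 replicate, and 3 hearts per diet limit the precision. Which hearts shared a litter is not given in the labels, and p-values measure only the spread between these samples. Figures were drawn with matplotlib 3.10.9 in Python 3.11.15.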

Additional observations from a re-analysis of the deposited data

How the results depend on the processing

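Of 83 ribosomal protein genes, 0 were lower at an unadjusted p below 0.05 and 0 passed the adjustment under all 19 alternatives. The count of higher genes was 0 as reported, 1 (Rpl5) with quantile normalization, cyclic loess, normexp background correction, the authors' log2 table, and the intensity trend with robust variances, and 2 (Rpl5 and Rps4x) with the methods' t-test. Leaving out 1 heart gave 0 to 1, with Rpl39l called without ND 1 and Rpl38 without HFD 1. The median ranged from -0.032 to 0.016 when 1 heart was left out. It was 0.044 with quantile normalization, 0.043 with cyclic loess and 0.043 in the authors' log2 table. Only the first moved by more than the spread between hearts under 75th percentile scaling (0.043), and the others lay close to that limit. The causes were not tested.

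Same-numbered hearts did not pair (correlations of -0.15, 0.15 and 0.19). With the replicate number as a block, 0 genes were lower, 0 higher and 0 past the adjustment, and the smallest unadjusted p was 0.125 (limma).

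Several named genes near 0 changed sign, none of them past the adjustment either way. Rplp0 was 0.08 with quantile normalization, 0.049 with cyclic loess and 0.078 in the authors' table. With the row of the slide as a term, which leaves HFD 3 alone against the ND-fed hearts, Rps6 was -0.037, Rpl11 -0.0015, Rplp1 -0.0061 and Rplp2 -0.11. Array weights gave -0.0022 for Rpl36al and -0.028 for Rplp2. Rpl39l was -0.035 with normexp, Rplp2 -0.0032 with outlier spots kept, and Rpsa 0.024 with a gene's probes averaged. Leaving out 1 heart gave -0.14 to 0.03 for Rpl32, -0.034 to 0.23 for Rps21, -0.34 to 0.84 for Rpl39l, -0.027 to 0.064 for Rpl36al, -0.015 to 0.052 for Rps6, -0.0041 to 0.018 for Rpl11, -0.082 to 0.044 for Rplp0, -0.032 to 0.055 for Rplp2, -0.014 to 0.039 for Fau and -0.13 to 0.032 for Rpsa. Rpl39l and Rpl7l1 have low signal over background.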
